A study of Mus musculus with 12 samples.

Results

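The sarcoplasmic reticulum calcium cycling genes of the heart are described here at the level of their mRNA. They are the 10 genes Atp2a2, Ryr2, Pln, Sln, Slc8a1, Casq2, Trdn, Jph2, Hrc and Camk2d, chosen by gene symbol. Earlier results of these data were known when they were chosen. They make up 10 of the 33615 gene symbols and 62 of the 104952 transcript rows in the table of estimated counts. Bulk RNA sequencing was done on frozen mouse hearts in 3 groups of 4 libraries. The first group (I/R + ML264) had 30 min of ischemia and 2 h of reperfusion together with ML264, a compound that inhibits KLF5, a zinc-finger transcription factor. The second (I/R) had the same ischemia and reperfusion without the inhibitor, and the third (Sham) was sham-operated and sampled at 2 h. Strain, sex, age, the dose and timing of ML264 and any vehicle given to the other groups are not given in the labels. A sham operation with ML264 is not among the groups, so an action of the compound on uninjured hearts cannot be told apart from one on injury. Whether each library came from its own mouse is not said in the labels, and p-values thus reflect library-to-library spread, which may be technical.

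In each heartbeat, calcium that enters the cardiomyocyte opens ryanodine receptors in the sarcoplasmic reticulum, and the calcium they release drives contraction. Relaxation follows when the SERCA pump returns calcium to the reticulum and the sodium-calcium exchanger carries the rest out of the cell. Small membrane peptides restrain the pump, a scaffold of luminal and junctional proteins holds the release channel in place, and reperfusion after ischemia is known for calcium overload in these cells.

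Libraries held 22.26 to 29.93 M estimated counts, of which mitochondrially encoded transcripts took 35.24% to 41.13%. The root mean square difference in log2 CPM (counts for each 1 M counted in a library, with TMM factors) from a library to the others had a median of 0.72 to 0.82 for every library, so none stood far from the rest on this measure. On another measure I/R + ML264 library 2 stood apart. Its counts differed from those of its replicates in 22210 to 22258 genes, where all other replicate pairs differed in 19844 to 20375. The 7 cardiomyocyte markers were all present and summed to 89534 to 98375 CPM in I/R + ML264, 87485 to 99784 CPM in I/R and 82331 to 94961 CPM in Sham. Ttn alone made up most of that sum, at 64848 to 77770 CPM over the 12 libraries. The groups overlapped in the sum, although 1 of the 7, Tnnt2, rose in I/R relative to Sham, by 0.35 on the log2 scale (edgeR adjusted p = 0.0394). The 5 endothelial markers summed to 351 to 434 CPM in I/R + ML264, 337 to 399 CPM in I/R and 405 to 501 CPM in Sham, with every I/R library below every Sham library, and 2 of the 5, Tek and Kdr, fell (edgeR adjusted p = 0.0221 and 0.0323). The other 3 did not pass, with log2 fold changes of 0.05 for Pecam1, 0.04 for Cdh5 and -0.67 for Egfl7 (edgeR adjusted p = 0.817, 0.825 and 0.120), so the lower sum is not shared by all markers of the cell type. In bulk tissue, fewer cells of a type and less RNA per cell cannot be told apart. The Y-linked transcript Ddx3y was at 0.106 to 0.484 CPM in 4 libraries, which were I/R + ML264 libraries 1 and 2 and I/R libraries 1 and 4. In the remaining 8, among them all of Sham, it was at 38.8 to 52.0 CPM. Sham therefore holds only 1 of these kinds of library.

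Of the 10 genes, 9 were measured and 1, Sln, was at 0 in every library. In I/R against Sham, 1 of the 9 measured genes passed an edgeR quasi-likelihood adjusted p of 0.05 and rose (Trdn), and none fell, while 7.75% of all 15952 genes tested passed in either direction and 4.58% rose. The share among the members is near that of all genes and is no result about the list. The median log2 fold change of the 9 was 0.11, against 0.00 over all genes tested. In I/R + ML264 against I/R none of the 9 passed, and 0.0502% of all genes did. In I/R + ML264 against Sham none passed either, and 0.288% of all genes did. At an unadjusted p under 0.05 the members numbered 3, 1 and 1 in these 3 comparisons, where 23.2%, 10.4% and 13.0% of all genes passed. DESeq2 called 1, 0 and 0 of them, and 11.2%, 0.999% and 2.32% of all genes. CPM ranges of the 2 groups did not overlap for 2 members in I/R against Sham, 1 in I/R + ML264 against I/R and 0 in I/R + ML264 against Sham, where this held for 15.8%, 5.62% and 7.37% of all genes. The comparisons share libraries and are not independent of each other.

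**Figure D1:**
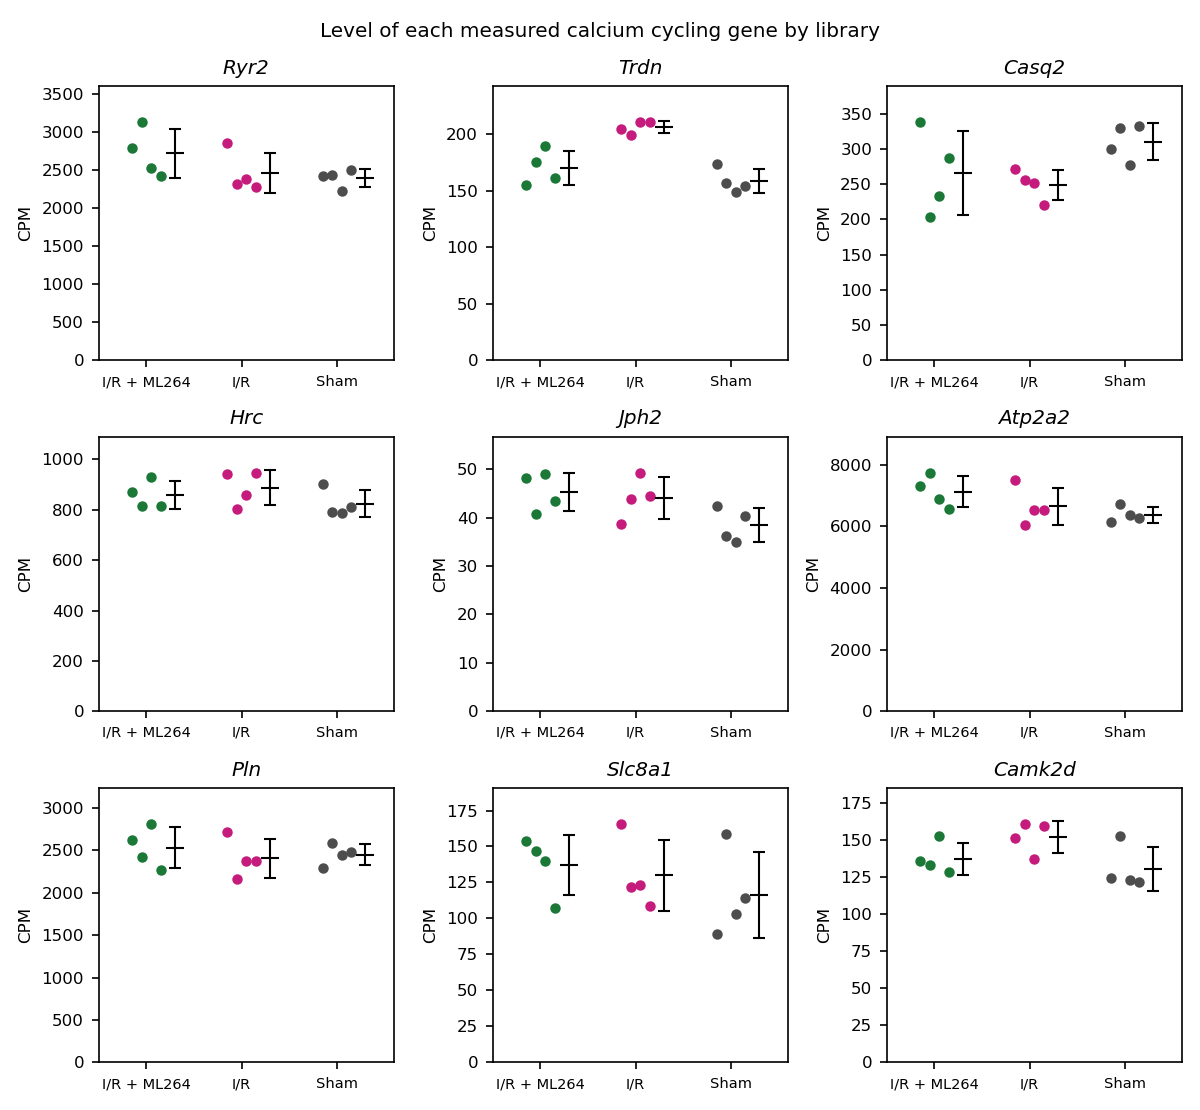
CPM of the 9 measured genes in each library (points), with the mean and SD of each group beside them (bar), for I/R + ML264, I/R and Sham, n = 4 each. The I/R libraries lie above all Sham libraries for Trdn and below them for Casq2, and the groups overlap in the other 7 panels.

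The only call among the members was of a gene of the release unit. Trdn encodes triadin, which anchors calsequestrin to the ryanodine receptor at the junctional membrane. The gene lies on chromosome 10 at 33080554 to 33476709 on the plus strand (GRCm38). Trdn was at 155, 175, 189 and 161 CPM in I/R + ML264 libraries 1 to 4, at 205, 199, 211 and 210.2 CPM in I/R and at 174, 157, 149 and 154 CPM in Sham. The 4 I/R libraries were above every library of the other 2 groups, and the I/R + ML264 and Sham libraries overlapped. Trdn rose in I/R, with a mean of 206 ± 5.49 CPM against 158 ± 10.7 CPM in Sham (SD, n = 4 each). The log2 fold change was 0.38 ± 0.07 (SE), with a 95% interval of 0.22 to 0.54 and an edgeR adjusted p of 0.00641.

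With the inhibitor, Trdn averaged 170.0 ± 15.2 CPM, against 206 ± 5.49 CPM in I/R alone (SD, n = 4 each). The log2 fold change of -0.28 ± 0.07 (95% interval -0.43 to -0.12) had an unadjusted edgeR p of 0.00162 and an adjusted p of 0.181, so it did not pass over all genes. Against Sham the value was 0.10 ± 0.07 (95% interval -0.05 to 0.26, edgeR adjusted p = 0.603), and this interval leaves room for the 2 groups to differ. Among the libraries with Ddx3y at 38.8 CPM or more, Trdn was at 199 and 211 CPM in I/R and at 149 to 174 CPM in Sham. It was at 189 and 161 CPM in the 2 such libraries of I/R + ML264, and among the libraries with low Ddx3y at 155 and 175 CPM in I/R + ML264 and 205 and 210.2 CPM in I/R. Per 1000 CPM of the cardiomyocyte markers, Trdn was at 1.57 to 2.01 CPM in I/R + ML264, 2.05 to 2.33 CPM in I/R and 1.62 to 1.93 CPM in Sham. I/R stayed above both other groups on that scale, which is mostly that of Ttn. Tnnt2, of the same marker list, itself rose by 0.35 on the log2 scale in I/R against Sham.

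Casq2 encodes calsequestrin, the calcium-binding protein of the reticulum lumen and the partner of triadin. It was at 339, 203, 234 and 288 CPM in I/R + ML264, at 271, 256, 251 and 220.3 CPM in I/R and at 301, 329.6, 277 and 333 CPM in Sham. Every I/R library was below every Sham library, and the I/R + ML264 libraries spread over both. The log2 fold change in I/R against Sham was -0.31 ± 0.13 (95% interval -0.59 to -0.03), and with an edgeR adjusted p of 0.162 it did not pass. When only the I/R and Sham libraries entered the fit, it passed, at -0.32 and an adjusted p of 0.0271. Per 1000 CPM of cardiomyocyte markers, Casq2 was at 2.15 to 3.44 CPM in I/R + ML264, 2.39 to 2.92 CPM in I/R and 3.34 to 3.51 CPM in Sham. The lower sum of endothelial markers in I/R stands beside these values and those of Trdn, and its part in them was not tested.

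Because Trdn and Casq2 lay on opposite sides of Sham, their ratio within a library, chosen after these values were seen and given with no test, does not depend on library scaling. Trdn over Casq2 was 0.457, 0.863, 0.808 and 0.561 in I/R + ML264, 0.755, 0.778, 0.838 and 0.954 in I/R and 0.578, 0.476, 0.537 and 0.462 in Sham. All 4 I/R libraries were above all 4 Sham libraries, which had to follow from the ranges of the 2 genes and is no further finding. I/R + ML264 libraries 2 and 3 lay within the I/R range, and libraries 1 and 4 lay within or just under the Sham range.

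**Figure D2:**
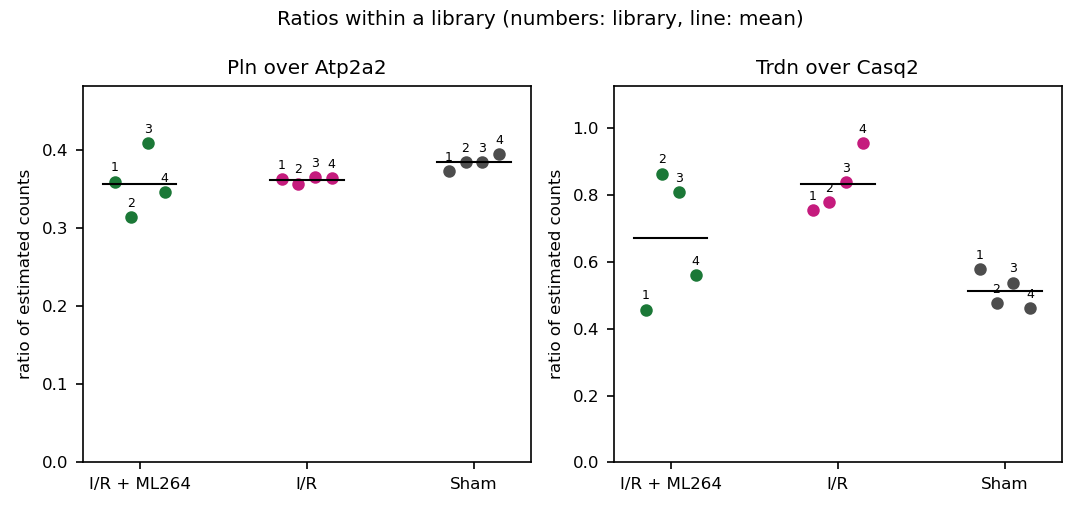
Ratios of estimated counts within a library, Pln over Atp2a2 (left) and Trdn over Casq2 (right), for I/R + ML264, I/R and Sham. Points are libraries with their numbers and lines are group means. Trdn over Casq2 is 0.755 to 0.954 in I/R and 0.462 to 0.578 in Sham, and Pln over Atp2a2 is 0.357 to 0.365 in I/R and 0.373 to 0.395 in Sham.

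Ryr2 encodes the release channel itself. It was at 2430.3 to 3139 CPM in I/R + ML264, 2287 to 2857 CPM in I/R and 2225 to 2507 CPM in Sham, with all groups overlapping. Its log2 fold change was 0.04 ± 0.09 in I/R against Sham, 0.14 ± 0.09 in I/R + ML264 against I/R and 0.18 ± 0.09 in I/R + ML264 against Sham (edgeR adjusted p = 0.847, 0.609 and 0.409).

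Hrc, a histidine-rich calcium-binding protein of the lumen that binds triadin, was at 815 to 931 CPM in I/R + ML264, 805 to 947 CPM in I/R and 788 to 902 CPM in Sham. Jph2, junctophilin, which ties the reticulum to the T-tubule membrane, was at 40.6 to 49.0 CPM in I/R + ML264, 38.6 to 49.2 CPM in I/R and 34.98 to 42.3 CPM in Sham. Both genes overlapped between all groups. The one member with an unadjusted p under 0.05 in I/R + ML264 against Sham was Jph2, at 0.24 ± 0.09 (unadjusted p = 0.0218, edgeR adjusted p = 0.281).

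Reuptake rests on the pump and its inhibitors. Atp2a2, which encodes the cardiac SERCA pump, had the highest CPM of the members. It was at 7312, 7733.5, 6892 and 6555 CPM in I/R + ML264, at 7497, 6048, 6522 and 6523 CPM in I/R and at 6133, 6729, 6350.1 and 6284 CPM in Sham. I/R library 1 was the highest and library 2 the lowest of their group, and all groups overlapped. The log2 fold change in I/R against Sham was 0.06 ± 0.08, with a 95% interval of -0.10 to 0.23 (edgeR adjusted p = 0.702). With ML264 added it was 0.10 ± 0.08 against I/R and 0.16 ± 0.08 against Sham (edgeR adjusted p = 0.701 and 0.400).

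Pln encodes phospholamban, the peptide that restrains the pump until it is phosphorylated. It was at 2626, 2426, 2813.5 and 2267 CPM in I/R + ML264, at 2715, 2158, 2381 and 2370.1 CPM in I/R and at 2287, 2584, 2441 and 2481 CPM in Sham. The groups overlapped, and the log2 fold change in I/R against Sham was -0.03 ± 0.08, with a 95% interval of -0.20 to 0.15 (edgeR adjusted p = 0.894). For I/R + ML264 it was 0.07 ± 0.08 against I/R (edgeR adjusted p = 0.804) and 0.05 ± 0.08 against Sham (edgeR adjusted p = 0.848). The level of Pln is uncertain, since 59.5% of its 31-base words also occur in other genes, mostly in Gm47644 on the opposite strand, and the library kit does not mark strand. Gm47644 has no row among the estimated counts, so its level is not known here. Genes that have estimated counts share 4.02% of the words.

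The ratio of inhibitor to pump mRNA can be read within a library. Pln over Atp2a2 was 0.359, 0.314, 0.408 and 0.346 in I/R + ML264, 0.362, 0.357, 0.365 and 0.363 in I/R and 0.373, 0.384, 0.384 and 0.395 in Sham. The I/R libraries lay close together and below every Sham library, while the I/R + ML264 libraries spread over both. The difference in mean log2 ratio between I/R and Sham was -0.09, and its two-sided exact permutation p of 0.0286 is the smallest that 4 libraries against 4 allow. Adjusted over the 3 comparisons it was 0.0857 and did not pass, but a single comparison at that smallest p could not have passed. Under ML264 the difference was -0.03 against I/R (exact permutation p = 0.629) and -0.11 against Sham (exact permutation p = 0.200, adjusted 0.300). The uncertainty in Pln carries over to this ratio.

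Sln encodes sarcolipin, a pump inhibitor found mainly in atrium and skeletal muscle. It had 0 estimated counts in all 12 libraries, which allows up to 0.100 to 0.135 CPM per library, without TMM factors, for counting error alone. Sln was thus not detectable at this depth in any group. The atrial markers beside it were low, at 8.69 to 24.8 CPM in I/R + ML264, 6.10 to 22.4 CPM in I/R and 7.42 to 16.3 CPM in Sham summed over 5 genes. Of these, Myl7 was at 0 in 11 libraries and Bmp10 in 9, while Nppa alone was at 4.94 to 21.7 CPM over the 12 libraries. Whether the 0 of Sln comes from the tissue taken or from its capture was not tested. The ventricular markers summed to 876 to 1211 CPM, 877 to 1097 CPM and 865 to 1057 CPM in I/R + ML264, I/R and Sham. The skeletal muscle markers stayed at or below 1.05 CPM in every library.

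Slc8a1, the sodium-calcium exchanger that removes calcium across the plasma membrane, had a wide spread among libraries, with means of 137 ± 20.7 CPM in I/R + ML264, 129.96 ± 24.8 CPM in I/R and 116 ± 30.1 CPM in Sham (SD, n = 4 each). It was at 107 to 154 CPM in I/R + ML264, 108 to 166 CPM in I/R and 88.9 to 159 CPM in Sham, and all groups overlapped. Its log2 fold change was 0.16 ± 0.19 in I/R against Sham, with a 95% interval of -0.25 to 0.57 (edgeR adjusted p = 0.671).

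Camk2d encodes the main cardiac isoform of calcium/calmodulin-dependent kinase II, which phosphorylates both the release channel and phospholamban. It was at 136, 133, 153 and 128 CPM in I/R + ML264, at 151, 161, 137 and 159 CPM in I/R and at 125, 153, 123 and 122 CPM in Sham. Sham library 2 reached into the I/R range, and the other 3 Sham libraries were below every I/R library. The log2 fold change in I/R against Sham was 0.22 ± 0.09 (95% interval 0.04 to 0.40, edgeR adjusted p = 0.128) and did not pass. Without Sham library 2 it was 0.30, with an adjusted p of 0.0477. The I/R + ML264 value was -0.15 ± 0.09 against I/R (edgeR adjusted p = 0.583) and 0.08 ± 0.09 against Sham (edgeR adjusted p = 0.763).

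**Figure D3:**
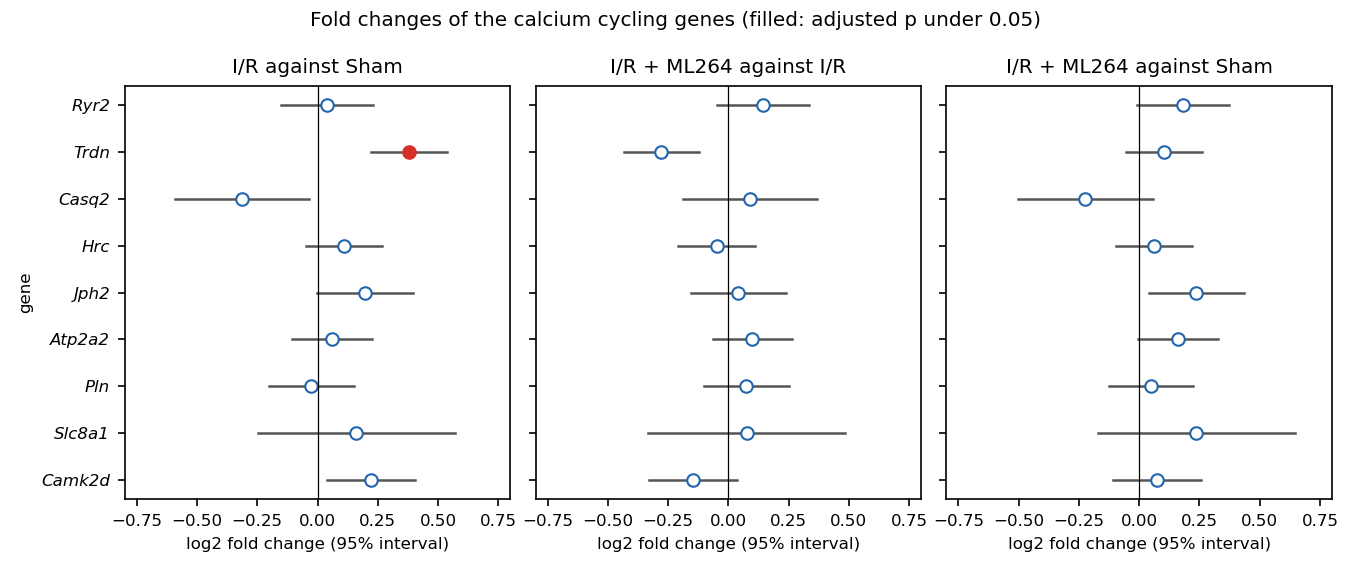
Log2 fold change of each measured gene (points) with its 95% interval (lines) in I/R against Sham, I/R + ML264 against I/R and I/R + ML264 against Sham. The only filled point, an edgeR adjusted p under 0.05, is Trdn at 0.38 in I/R against Sham.

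Compared per kilobase of the longest listed transcript, the members spanned a wide range of levels in Sham. Atp2a2 was at 1123 ± 44.7 CPM per kb and Pln at 1049 ± 52.8 (SD, n = 4), followed by Hrc at 342 ± 22.2, Ryr2 at 143 ± 7.21 and Casq2 at 121 ± 10.3. Slc8a1 at 36.6 ± 9.47 and Trdn at 35.1 ± 2.38 did not differ beyond their spread, and Camk2d at 23.6 ± 2.67 and Jph2 at 9.13 ± 0.821 CPM per kb were lowest of those measured. The order depended on the length used. Per kilobase of the median listed transcript, Pln at 1969 ± 99.2 CPM per kb was above Atp2a2 at 1600.0 ± 63.7, and Casq2 at 331 ± 28.1 was above Ryr2 at 143 ± 7.21.

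The table has 1 row per transcript, but the rows of a gene could not be followed from library to library. Nearly all Atp2a2 counts of a library, 91.3% to 94.0%, sat on 1 of its 5 rows, and each of the 5 was that row in at least 1 library. Replicates differed as much as groups did, as with ENSMUST00000031423.9, which held 92.7% in Sham library 1 and 3.95% in Sham library 2. Among 250 genes with 2 rows, at least 5000 counts and 80% or more of them on 1 row, libraries of the same group had the same row on top for a median of 48.8% of genes, where 50% follows from random order. The figure was 33.3% for 3 rows, 23.8% for 4 rows and 18.6% for 5 rows, and no gene of any of these kinds kept 1 row on top in all 12 libraries. Sums over a gene do not depend on this order.

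Transcript names were therefore not compared between groups for Camk2d or Atp2a2. For Camk2d the largest of 28 rows held 19.4% to 31.1% of the counts, and 11 different rows were on top over the 12 libraries. The planned edgeR tests on rows called 0 of 60 member rows by level and 0 by usage (the share of a row within its gene) in each comparison, and 0.0% of all rows. At an unadjusted p under 0.05 the member rows were 6, 4 and 6 by level and 6, 4 and 5 by usage, in I/R against Sham, I/R + ML264 against I/R and I/R + ML264 against Sham. Of all rows, 5.97%, 5.88% and 5.76% passed that p by level and 5.31%, 5.50% and 5.28% by usage. No other tool was run on rows, and given the order of the rows these zeros say nothing about isoforms.

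The share held by whichever row is largest does not depend on the order of the rows, although that row can be another one in each library. For Trdn the share was 26.4% to 31.2% in I/R + ML264, 23.0% to 25.6% in I/R and 25.8% to 32.0% in Sham. The I/R libraries lay below every library of both other groups. For Slc8a1 it was 71.5% to 81.2% in I/R + ML264, 82.7% to 92.96% in I/R and 87.3% to 94.4% in Sham, with I/R + ML264 below both other groups. Of the 9 measured members, the groups did not overlap for 1 in I/R against Sham, 2 in I/R + ML264 against I/R and 1 in I/R + ML264 against Sham. Over 12288 genes with at least 2 rows this held for 5.92%, 3.72% and 3.93% in those comparisons. The measure was chosen after the values were seen and has no test.

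Around the members, 46 of 51 further genes of calcium handling were tested. In I/R against Sham, 2 rose and 1 fell, where 4.58% and 3.17% of all genes did. At an unadjusted p under 0.05 there were 11, where 23.2% of all genes passed. The median log2 fold change of the 46 was 0.07, against 0.00 over all genes. Ppp2ca, the catalytic subunit of protein phosphatase 2A, rose, with 67.4 ± 5.06 CPM in I/R and 51.02 ± 0.934 CPM in Sham (log2 fold change 0.40 ± 0.08, edgeR adjusted p = 0.0097). Its level is uncertain, since 43.0% of its words are shared, mostly with an opposite-strand gene that has no row here. The level of that gene is thus not known. Genes that have estimated counts share 2.83% of the words of Ppp2ca. Pde4d, a phosphodiesterase that breaks down cyclic AMP, rose as well, with 37.7 ± 0.679 CPM in I/R and 29.3 ± 4.38 CPM in Sham (0.36 ± 0.11, edgeR adjusted p = 0.049999, just under the threshold). The call of Pde4d ended when 1 of 6 libraries was left out (number 1, 3 or 4 of Sham, number 1, 2 or 3 of I/R), and with Ddx3y as a covariate, which left 1 gene called.

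**Figure D4:**
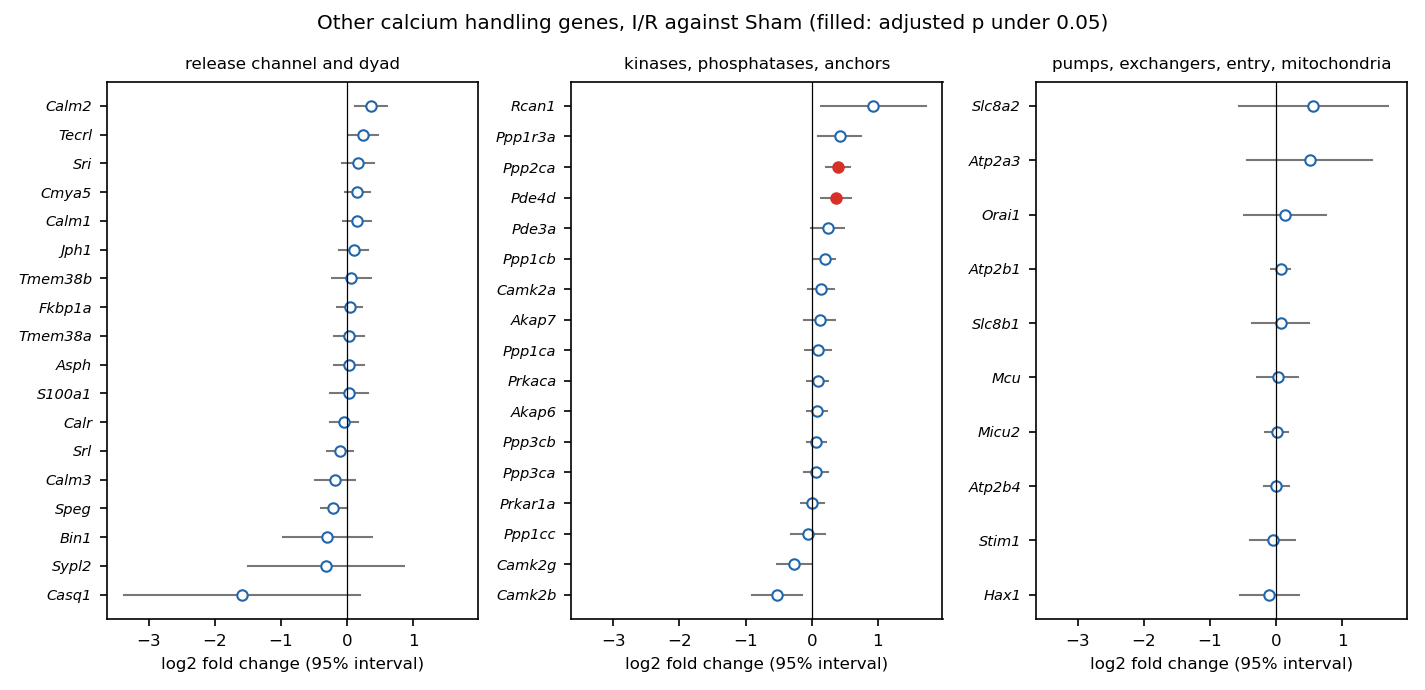
Log2 fold change (points) with 95% interval (lines) of 45 of the 46 tested calcium handling genes outside the member list, in I/R against Sham, in 3 panels by role. Filled points have an edgeR adjusted p under 0.05 and are Pde4d at 0.36 and Ppp2ca at 0.40.

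With the inhibitor, none of the 46 passed edgeR in I/R + ML264 against I/R or against Sham. At an unadjusted p under 0.05 there were 4 and 6 of them, where 10.4% and 13.0% of all genes passed. DESeq2 called 0 and 1, where it called 0.999% and 2.32% of all genes. The 1 was Ppp1r3a, a subunit that targets protein phosphatase 1 to glycogen and to the reticulum of striated muscle. It was at 288 ± 66.4 CPM in I/R + ML264 and 189.8 ± 30.8 CPM in Sham (SD, n = 4 each), with a log2 fold change of 0.60 ± 0.15 and an edgeR adjusted p of 0.120. Their median log2 fold change was -0.01 against I/R and 0.04 against Sham, beside 0.00 and 0.00 over all genes.

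Among the 10856 genes averaging 1 or more in log2 CPM, the 3 whose centred log2 CPM over the 12 libraries lay nearest to that of Trdn were Snw1, Fyttd1 and Ybx1. Their root mean square differences from Trdn were 0.07, 0.07 and 0.08, where the spread of Trdn about its own mean was 0.18 and the median gene lay at 0.28. Fyttd1 was at 50.2 ± 2.95 CPM in I/R + ML264, 59.0 ± 1.17 CPM in I/R and 47.8 ± 3.62 CPM in Sham (SD, n = 4). Snw1 was at 20.3 ± 0.954, 24.1 ± 0.769 and 19.6 ± 0.302 CPM in the same groups, and is uncertain because 45.2% of its words are shared, mostly with Slirp. Ybx1 was at 141 ± 9.77, 158 ± 11.98 and 131 ± 5.80 CPM, and is uncertain as well, with 25.9% of its words shared. These genes were picked for their likeness to Trdn, so their pattern is a description.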

How the data were processed

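The authors deposited estimated counts, 1 value per transcript and library, with no normalization or pooling of replicates. FastQC, kallisto and the GRCm38 (mm10) build are named, per the submitters' processing notes, without version or annotation release. Per the labels' protocols, libraries were made from total RNA with Nextera XT, which does not mark strand. Of the values, 45.82% were not whole. Sums over each gene symbol were rounded to whole counts. No 2 replicates were identical, and chi-square per gene between replicates was 7.36 to 69.96, above counting noise. Pairs with I/R + ML264 library 2 were at 44.8 to 69.96, and pairs with I/R library 1 at 41.08 to 59.36.

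All 12 libraries were fitted in 1 model in R 4.3.3 with edgeR 4.0.16 (filterByExpr with a minimum of 10 counts, TMM factors, robust quasi-likelihood F-test). A gene is called where its p, adjusted by Benjamini-Hochberg over the 15952 genes tested, is under 0.05. The biological coefficient of variation was 0.2055. CPM is scaled by TMM factors. With 22.26 to 29.93 M counts per library, 3 counts, the limit a count of 0 allows, are 0.1002 to 0.1348 CPM by library totals, without TMM factors. Reads carry no molecular identifiers, so this covers counting error only. Coordinates and transcript lengths are from GENCODE (GRCm38). A word is a run of 31 bases, and genes that share more than 25% of theirs are called uncertain. Rows were tested with edgeR by level and by usage (diffSpliceDGE). The ratio of Pln to Atp2a2 was tested by exact permutation. That of Sln to Atp2a2 has no value, so p was adjusted over 3 tests, not the 6 planned.

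The members, the list of 51 further genes, the markers and the tests were chosen with earlier results of these data known. Full values are given for each called member and for Atp2a2, Pln, Sln and Camk2d, and other genes are named where they were called or lay nearest to a called member. Casq2 was given in full, and Ppp1r3a, Tecrl and Calm2 were named, after their values were seen. Of the 51, Fkbp1b, Ppp1r1a, Atp2a1 and Mrln were below the filter and Strit1 was not analysed here, and 1 called gene is not reported here. Alternatives were DESeq2 1.42.0, RLE and upper-quartile factors, other filters, only the groups compared, mitochondrial genes left out, Ddx3y or Arntl as a covariate, the replicate number as a block, and each library left out in turn. Scripts were tested on simulated data.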

Additional observations from a re-analysis of the deposited data

Results flagged for a closer look

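Camk2d in Sham had 1 library apart from the others. Sham library 2 was at 153 CPM and the other 3 at 122 to 125 CPM, so the gap from library 2 to its nearest neighbour took 0.904 of the range of the group, above Dixon's 95% critical value for 4 samples. Of 30 groups of 4 examined in this way, it was 1, and chance alone gives about 1 in 20. The effect of that library on the comparison of I/R with Sham is given with the values of Camk2d.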

How the results depend on the processing

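The rise of Trdn in I/R against Sham passed in all 22 alternatives run on genes, with log2 fold changes of 0.33 to 0.43 and adjusted p between 0.000184 (DESeq2) and 0.0345 (Arntl, a clock gene, as a covariate). Arntl itself was uneven over the groups, at 1.25 to 3.09 CPM in I/R + ML264, 1.05 to 11.1 CPM in I/R and 2.89 to 15.3 CPM in Sham. In I/R only library 1 was above 2.01 CPM. In I/R + ML264 against I/R, Trdn passed in none of the 22, at -0.33 to -0.24 and adjusted p between 0.0578 and 0.399. Members called in I/R against Sham numbered 2 with only the groups compared (Casq2 joins Trdn), and 1 to 2 when each library was left out in turn (2 without Sham library 2, where Camk2d joins). In the other 2 comparisons 0 members were called in all 22. Further calcium genes called in I/R against Sham numbered 1 with Ddx3y as a covariate, 5 by DESeq2 (Calm2 and Ppp1r3a join) and 1 to 4 with a library left out. In I/R + ML264 against Sham they numbered 1 by DESeq2 (Ppp1r3a) and 0 to 2 with a library left out, the 2 being Ppp1r3a and Tecrl without I/R + ML264 library 1. The cause of these shifts was not tested. Upper-quartile factors gave 620 higher and 676 lower genes in I/R against Sham, where TMM factors gave 731 and 505, with a shift of -0.04 in the median log2 fold change. The small values of Atp2a2, Pln and Ryr2 in I/R against Sham ranged over both signs (-0.01 to 0.15, -0.09 to 0.04 and -0.05 to 0.11). The log2 ratio of Pln to Atp2a2 in I/R against Sham was -0.10 to -0.07 with a library left out, and in I/R + ML264 against I/R it changed sign without I/R + ML264 library 2, to 0.03. Libraries with the same number did not vary together (correlations of -0.11 to 0.09). No pairing by number was seen, though 4 libraries per group cannot exclude it. With the replicate number as a block, 1 member (Trdn, 0.38, adjusted p = 0.0168) and 2 further genes were called in I/R against Sham, and none in the other comparisons. With libraries paired by number, the log2 ratio had an exact permutation p of 0.125, the smallest that 4 pairs allow, in I/R against Sham, 0.625 in I/R + ML264 against I/R and 0.375 in I/R + ML264 against Sham (adjusted 0.375, 0.625 and 0.5625), so this paired test could not have passed. Alternatives for transcript rows and the Sln ratio were not run.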
